A study of Mus musculus with 14 samples.

Results

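COPI, COPII and SNARE vesicle transport was examined as a list of 58 named genes that encode the coats, cargo receptors, GTPases and fusion proteins moving cargo between the endoplasmic reticulum (ER), the Golgi and the cell surface. Of these, 57 were found among the 35271 genes of the deposited table through their Ensembl IDs, and 1, Vamp7, was not matched and was not analysed here. The members were listed by name, with earlier results of these data known. The samples were 14 single cells labelled as glomerular mesangial cells, the contractile cells that hold the capillary loops of the kidney filter together. All came from 1 wild type male C57BL/6 mouse (spelled C56BL/6 in the sample labels) of 8 weeks. Glomeruli were enriched with magnetic beads and digested with enzymes, and a Fluidigm C1 instrument captured the cells and made their cDNA. No cells of another genotype, treatment or tissue were included, so no groups were compared. The values therefore describe 14 cells of a single animal, named GL_M_ with a number, and have no biological replicate.

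COPII coats form on the ER when the GTPase Sar1 is loaded at exit sites and recruits an inner layer of Sec23 and Sec24, which selects cargo, and an outer cage of Sec13 and Sec31. COPI coats are recruited by Arf GTPases at the Golgi and return receptors and ER residents. Each vesicle then fuses through SNARE proteins, which zip together across the membranes and are pulled apart again by the ATPase NSF with its SNAP adaptors. Mesangial cells secrete the matrix around them, and secreted proteins pass along this route.

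Per the labels all cells are mesangial, and 6 to 8 of 8 mesangial markers reached an RPKM (reads per kilobase of gene and megaread) of at least 10 in each cell. GL_M_30 had 9 of 12 endothelial markers at 10 or more, and its summed endothelial level was an RPKM of 4116, against a median of 886 over the cells. In GL_M_55, 5 of 10 podocyte markers were at 10 or more, with a summed level of 2178 against a median of 82.2. GL_M_85 had 1 of 9 leukocyte markers at 10 or more, Fcer1g, and a summed leukocyte level of 925. All 7 tubule markers were below 1 in each cell, and the same held for 7 of the 9 leukocyte markers. Of 7 smooth muscle markers, 3 were below 1 throughout and 4 reached 1 in some cell. At most 1 of them was at 10 or more in a cell, and their summed level was highest in GL_M_29, at 109. The read totals recovered from the values ran from 6.60 to 23.8 megareads, and the cells had 1770 to 5277 genes at an RPKM of at least 1.

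A short promoter element that ties many secretory genes together is the core of the unfolded protein response element, TGACGTGG, which the stress factor XBP1 and its relatives recognise. RefSeq promoter sequences (GRCm38.p6, 250 bases before to 50 after the start) were on hand for 47 members, and 8 of them (17.0%) held this motif on either strand, against 0.714% of 27025 genes. These are all genes with a promoter sequence, without the limit to protein-coding genes used for the expression values. They were not matched to the members for base content, so whether the difference is particular to this route was not tested. The stretches are shown because they are what these 8 genes have in common outside their expression values. Each is read 5′ to 3′ on the strand that carries the motif, and capitals mark the motif.
Sec24d: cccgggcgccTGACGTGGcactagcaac
Sec23a: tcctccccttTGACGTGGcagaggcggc
Copb1: agtccttggcTGACGTGGaagggggcgg
Copb2: gccaacccacTGACGTGGaacttccggg
Arf1: cggcaggcgcTGACGTGGctgccgtcag
Gbf1: gtcagctcacTGACGTGGtaactagcct
Kdelr3: ggccgcgcggTGACGTGGcggggcggcc
Stx5a: cctaactcggTGACGTGGctgctgcgcc

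The Sec24d stretch lies at chr3:123267460-123267487 on the plus strand, Copb1 at chr7:114254691-114254718 on the plus strand and Copb2 at chr9:98563714-98563741 on the minus strand. Arf1 lies at chr11:59228229-59228256, Sec23a at chr12:59011994-59012021, Kdelr3 at chr15:79516368-79516395, Stx5a at chr19:8741423-8741450 and Gbf1 at chr19:46152536-46152563, all on the minus strand. Stx5a held a second copy on its plus strand at chr19:8741453-8741473. Detection differed among the genes with the motif, and members without it were not compared. Arf1 and Stx5a were at an RPKM of 1 or more in 9 cells, Copb1 in 7, Copb2 and Sec24d in 5, Gbf1 in 4, Sec23a in 2 and Kdelr3 in 0. Of the other motifs searched on both strands, the cyclic AMP element TGACGTCA occurred in 3 of 47 members (6.38%, against 2.03% of genes) and the E-box CACGTG in 6 (12.8%, against 8.09%). The GC box GGGCGG occurred in 34 (72.3%, against 38.2%), the TATA box TATAAA in 1 (2.13%, against 15.7%) and the ER stress element, searched by its usual consensus, in 0 (against 0.137%). TGACGTGG and TGACGTCA share their first letters but no stretch can match both, and a match describes the sequence and is not a measured binding site.

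Few of the 57 members were present throughout, and most were high in some cells and near or at 0 in others. Here a gene counts as detected from an RPKM of 1 upward. This lies above the level of 3 nominal reads, counted at the full exon length, for any member in any cell (0.00845 to 0.362). The lengths behind the deposited values were not given. At several members with more than 1 annotated transcript, values stepped by more than 1 nominal read. There 3 nominal reads can be a single read, and 3 reads give a higher RPKM than stated. Detection in all 14 cells held for 2 members, Kdelr2 and Arf5, beside 0.701% of the 21396 protein-coding genes. Detection in 7 or more cells held for 17 members (29.8%), beside 9.01% of protein-coding genes, and a level of 10 or more in 7 or more cells for 7 members (12.3%), beside 4.9%. In contrast, 5 members (8.77%) were below 1 in every cell, beside 58.2% of protein-coding genes. The 52 members detected in some cell were detected in a median of 5 cells, and the 8946 protein-coding genes detected in some cell in a median of 3.

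Of the 798 member values, 312 (39.1%) were exactly 0, 201 (25.2%) lay above 0 and below 1, 89 (11.2%) between 1 and 10, 105 (13.2%) between 10 and 100, and 91 (11.4%) at 100 or more. Where a member was at 10 or more its median RPKM was 84.6, and 41 members reached 100 in some cell. Values between 1 and 100 were thus more common than values of 100 or more. Protein-coding genes detected in some cell had 45.7% of their values at 0, 24.5% above 0 and below 1, 10.2% between 1 and 10, 9.41% between 10 and 100 and 10.2% at 100 or more. An exact 0 can be a transcript lost in cDNA synthesis as well as one that was absent, and these cannot be told apart here.

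**Figure D1:**
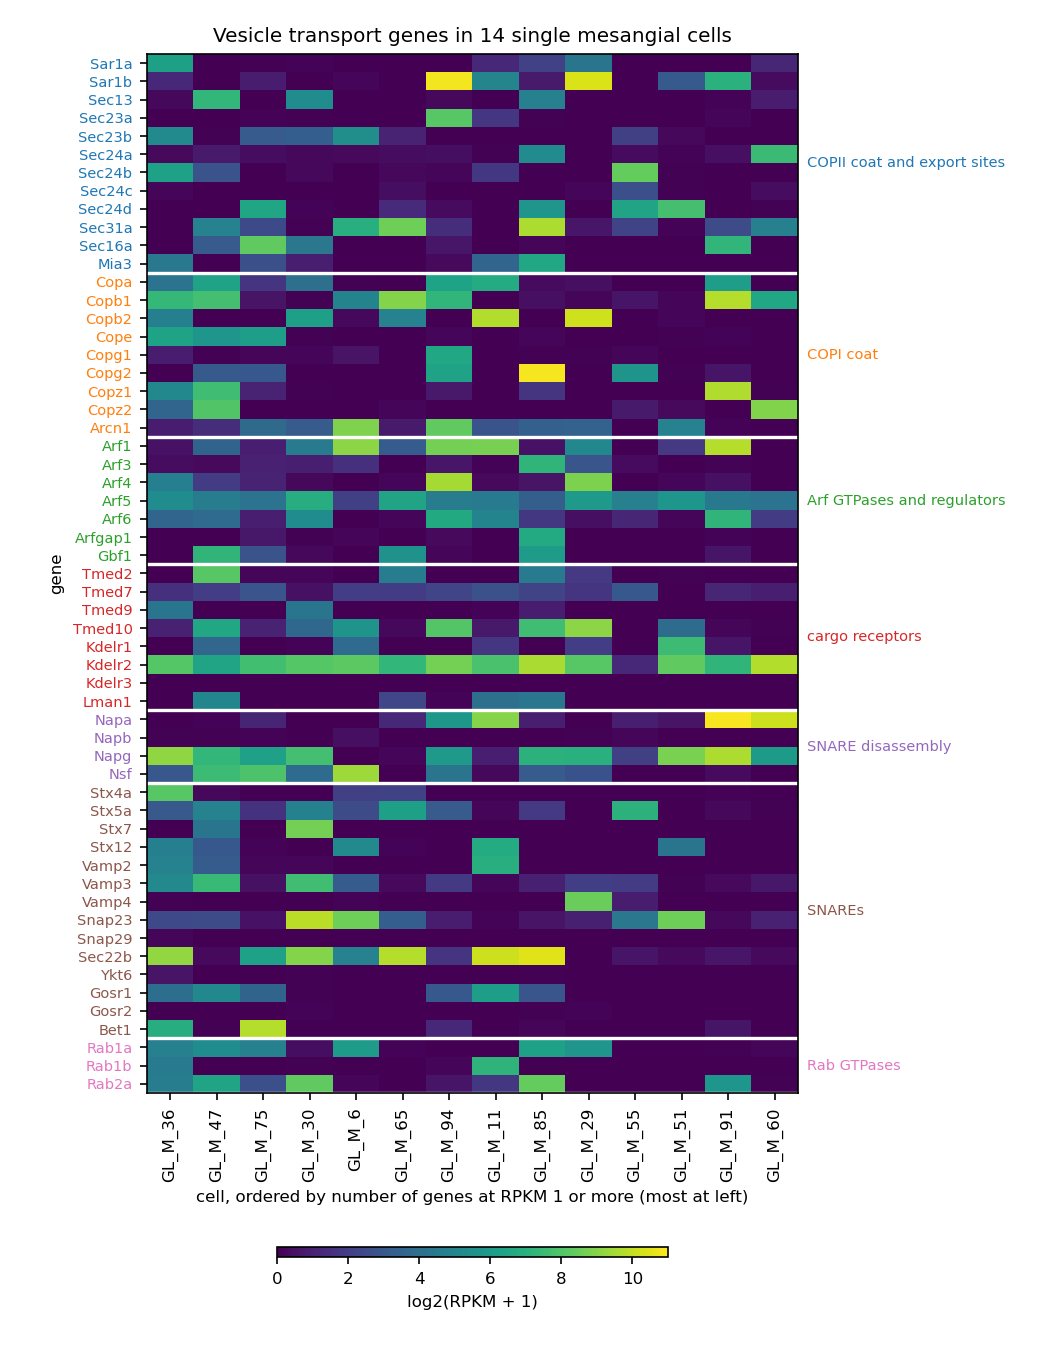
Levels of the 57 members as log2(RPKM + 1), with genes in rows by role and the 14 cells in columns, ordered by the number of genes detected. Kdelr2 and Arf5 are at an RPKM of 1 or more in every column, with low points of 1.36 for Kdelr2 in GL_M_55 and 3.29 for Arf5 in GL_M_6. Most other genes are bright in a few cells and dark in the rest.

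The COPII list (12 members) had no member in every cell. Sec31a, an outer cage subunit, had the highest median of this role, with a lowest RPKM of 0, a median of 4.15 and a highest of 806. It was detected in 9 cells, with GL_M_85 at 806, GL_M_65 at 383 and GL_M_6 at 122. Sec13, its cage partner, was detected in 3 cells, at 155 in GL_M_47, 40.3 in GL_M_30 and 26.5 in GL_M_85, and was at 0 in 7. The cage partners were detected together in GL_M_47 and GL_M_85.

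The Sar1 GTPases that start the coat were uneven. Sar1b ranged from 0 to 1799 with a median of 0.755, and was at 1799 in GL_M_94, 1344 in GL_M_29, 130 in GL_M_91 and 31.1 in GL_M_11. Sar1a ranged from 0 to 76.2 with a median of 0.0398. Both were detected in 3 cells, Sar1b alone in 3, Sar1a alone in 2 and neither in 6. The cells that carried the highest Sar1b were therefore few, and 4 cells listed it at 0.

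In the inner coat, Sec23b, with a median of 0.120 and a highest value of 42.1, was detected in 6 cells, and Sec23a, with a median of 0 and a highest value of 280 in GL_M_94, in 2. No cell had both at this limit and 6 cells had neither. Sec23a was above 0, at 0.0469 in GL_M_30 and 0.0904 in GL_M_75, where Sec23b was at 8.71 and 8.04. Such low Sec23a values can be a single read each. Of the cargo-selecting Sec24 genes, Sec24d was detected in 5 cells, Sec24b in 4, Sec24a in 2 and Sec24c in 1. Exactly 1 of the 4 was detected in 7 cells, 2 or more in 2 cells and 0 in 5. Sec24d was at 214 in GL_M_51, 90.05 in GL_M_75, 83.8 in GL_M_55 and 51.8 in GL_M_85, Sec24b peaked at 342 in GL_M_55, Sec24a at 182 in GL_M_60, and Sec24c did not exceed 5.51.

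A further pair of members acts at ER exit sites. Sec16a, the scaffold on which COPII assembles, was detected in 4 cells with a median of 0 and a highest value of 313 in GL_M_75. Mia3, also called TANGO1, which loads bulky cargo such as collagens, was detected in 4 cells with a median of 0.0210 and a highest value of 93.96 in GL_M_85. GL_M_75 was the 1 cell in which both were detected.

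In the COPI coat (9 members) 3 genes were detected in 7 or more cells. Copb1, the beta subunit, ranged from 0 to 868 with a median of 15.4, and its 7 detected cells were all at 10 or more. Arcn1, the delta subunit, was detected in 9 cells, with a median of 7.10 and a highest value of 462 in GL_M_6, but only 4 of the 9 were at 10 or more. Copa, the alpha subunit, was detected in 7 cells with a median of 1.24 and a highest value of 108. Ncstn, which overlaps part of Copa on the other strand, was highest in GL_M_65 at 312, where Copa was at 0, and next in GL_M_36 at 143, where Copa was at 17.3. Copb2, the beta prime subunit that pairs with Copa, ranged from 0 to 1177 with a median of 0.0603 and was detected in 5 cells, 3 of which also had Copa. Cope, the epsilon subunit, was detected in 3 cells and stayed between 54.6 and 82.6 there.

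The gamma and zeta subunits each have a pair of genes. Copg2 was detected in 5 cells and was at 1863 in GL_M_85, 80.4 in GL_M_94 and 50.8 in GL_M_55, while Copg1 was detected in GL_M_94 alone, at 97.0. Mest, which overlaps 17.8% of the Copg2 exon bases on the other strand, was listed at 0 in all 14 cells. Copz1 was detected in 5 cells, up to 828 in GL_M_91, and Copz2 in 3, up to 484 in GL_M_60, with both in 2 cells and neither in 8.

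No cell had detected transcripts for all 7 COPI positions, counting either gamma and either zeta gene as filling its position. GL_M_47 had 6, GL_M_36 and GL_M_75 had 5, 5 cells had 3 or 4 and 6 cells had 1 or 2. Of 5 COPII positions (either Sar1, Sec13, either Sec23, any Sec24 and Sec31a), GL_M_85 had 4, 8 cells had 3, 4 cells had 2 and GL_M_29 had 1. The cells with most COPI positions were also those with most genes, at 5277 in GL_M_36, 4842 in GL_M_47 and 3419 in GL_M_75, whereas GL_M_85, with most COPII positions, had 2788. At this limit 35.7% of the values of the 9 COPI members and 30.4% of those of the 12 COPII members were detected. How many complete sets such rates alone would give was not computed. The count of complete sets depended on the limit. With at least 3 nominal reads as the limit, 1 cell had all COPI positions and 4 had all COPII positions, though some of these values can be single reads. With any value above 0 these numbers were 2 and 4.

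**Figure D2:**
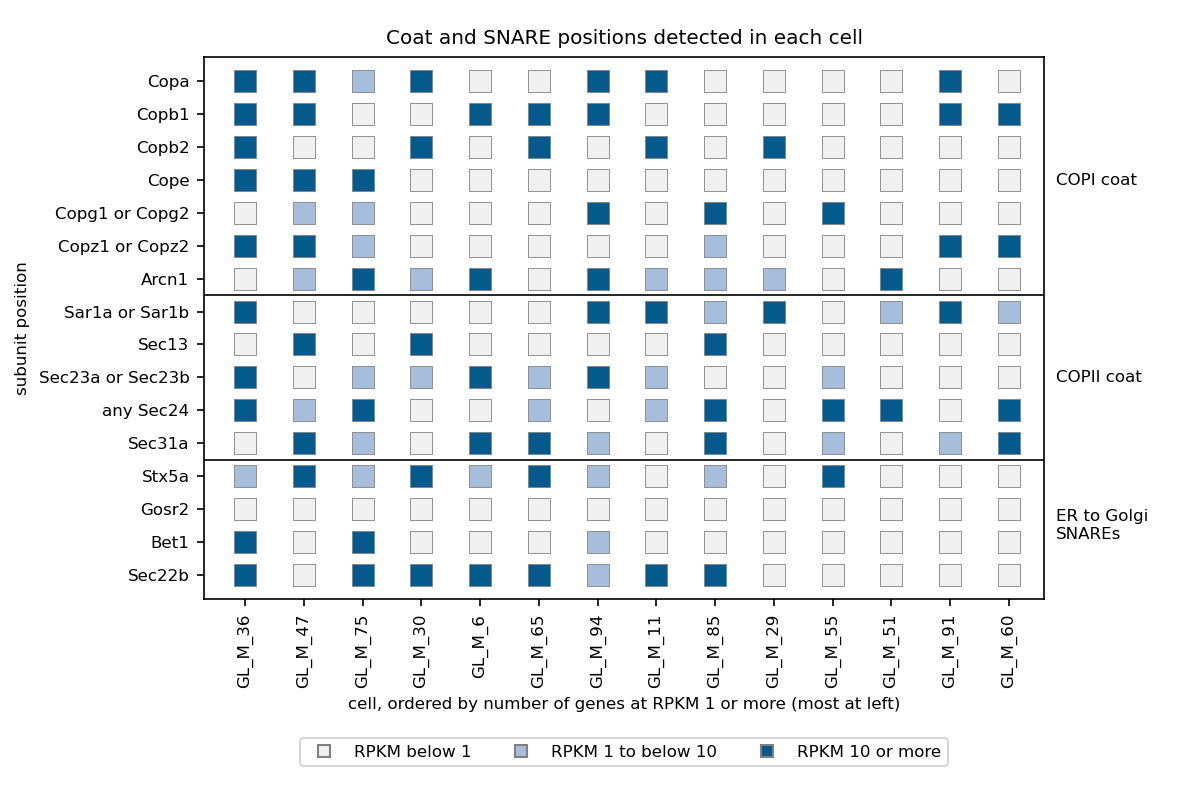
Subunit positions of the COPI coat, the COPII coat and the ER to Golgi SNARE set in rows and the 14 cells in columns, ordered by genes detected, with pale, mid-blue and dark squares for an RPKM below 1, of 1 to below 10 and of 10 or more. No column is filled for any of the 3 sets, and Gosr2 is below 1 in all 14 cells.

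Among the Arf GTPases, which recruit coats to membranes, Arf5 was the steady member. Its RPKM had a lowest value of 3.29 in GL_M_6, a median of 23.5 and a highest value of 113 in GL_M_30, a mean log2(RPKM + 1) of 4.80 ± 1.24 (SD over 14 cells), and 12 cells were at 10 or more. Arf5 (ENSMUSG00000020440) lies on chromosome 6 from 28423560 to 28426602 on the plus strand of GRCm38. Gcc1 overlaps 16.4% of its exon bases on the other strand, but Gcc1 was at 0 in 10 cells and reached 1 or more in 2, GL_M_91 at 420 and GL_M_94 at 5.99, where Arf5 was at 20.7 and 23.5. Detection in 14 of 14 cells has an exact 95% Clopper-Pearson interval of 76.8% to 100%. It takes the cells as independent draws from this 1 mouse and does not bear on other animals. Arf5 was named for its high count, so the stated coverage is not assured.

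The other Arf genes came and went between cells. Arf1, the main COPI recruiter, ranged from 0 to 868 with a median of 9.50, and it was detected in 9 cells, with 868 in GL_M_91, 539 in GL_M_6, 431 in GL_M_11 and 416 in GL_M_94. Arf6, which acts at the cell surface, was detected in 9 cells with a median of 2.61 and a highest value of 144. Arf4 was detected in 5 cells, with a median of 0.309 and a highest value of 728, and Arf3 in 4, with a median of 0.282 and a highest value of 147. Arf5 exceeded Arf4 by over 2-fold on the log2(RPKM + 1) scale in 11 cells and Arf4 exceeded Arf5 in 2, namely GL_M_94 and GL_M_29. Arf3 exceeded Arf1 by over 2-fold in 1 cell and Arf1 exceeded Arf3 in 9. Of the Arf regulators, the exchange factor Gbf1 was detected in 4 cells, up to 145, and the GTPase-activating Arfgap1 in GL_M_85 alone, at 106.

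Kdelr2 had the highest median of all 57 members and was detected, like Arf5, in all 14 cells. It encodes a KDEL receptor, which binds ER-resident proteins that have escaped to the Golgi and returns them in COPI vesicles. Its RPKM had a lowest value of 1.36 in GL_M_55, a median of 271 and a highest value of 844 in GL_M_60, and the other 13 cells were all at 85.4 or more. The mean log2(RPKM + 1) was 7.61 ± 2.03 (SD over 14 cells). Kdelr2 (ENSMUSG00000079111), on chromosome 5 from 143403838 to 143421901 on the plus strand of GRCm38, has 1 annotated transcript, and 0% of its 50-base stretches recur in another annotated gene. Its rank by RPKM within a cell ran from 181 to 2212 with a median of 539.5, and the 10 members that led a cell did not include it.

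The sister receptors differed in level from Kdelr2. Kdelr1 ranged from 0 to 185 with a median of 0.0384 and was detected in 5 cells, among them GL_M_51 at 185, GL_M_6 at 13.2 and GL_M_47 at 11.4. Kdelr3 was listed at 0 in all 14 cells, where 3 reads would have given at most 0.322. Kdelr2 exceeded Kdelr1 by over 2-fold on the log2(RPKM + 1) scale in 13 cells, the exception being GL_M_51, with 318 for Kdelr2 and 185 for Kdelr1.

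**Figure D3:**
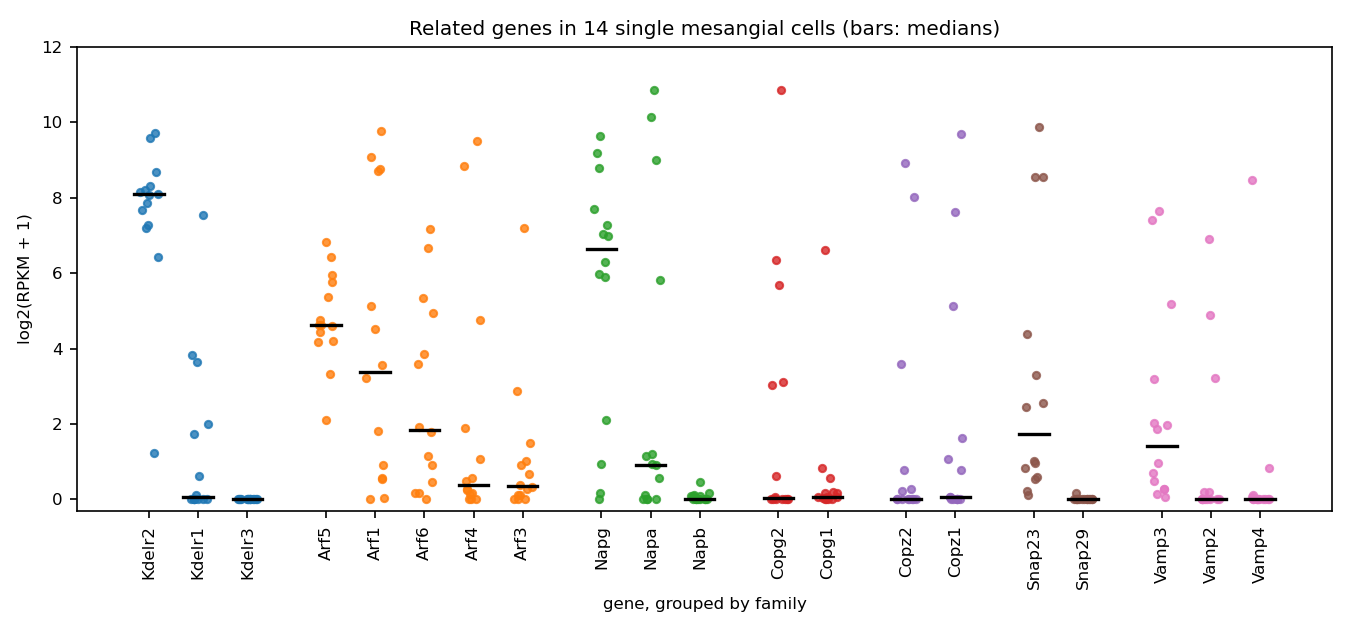
Levels as log2(RPKM + 1) of related genes, grouped and coloured by family, with 1 point per cell and black bars at the medians. Kdelr2, Arf5 and Napg have medians well above 0, while Kdelr3, Napb and Snap29 lie at or near 0 in all 14 cells.

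The p24 proteins, cargo adaptors of both coats, reached different heights. Tmed10 ranged from 0 to 538 with a median of 6.53 and was detected in 8 cells. Tmed7 was detected in 11 cells but never above 7.08, with a lowest value of 0.0146, a median of 2.91 and a mean log2(RPKM + 1) of 1.78 ± 0.89 (SD over 14 cells). Ticam2 overlaps 9.48% of the Tmed7 exon bases on the same strand and was at 1 or more in 11 cells with at most 10.5, so reads of these neighbours may not be fully separated. Tmed2, which shares 22.0% of its 50-base stretches with other genes, most of them with the pseudogene Gm10698, was detected in 4 cells, up to 282 in GL_M_47. Tmed9 was detected in 2 cells, both at 18.4. Lman1, the lectin ERGIC-53 that carries glycoproteins out of the ER, was detected in 4 cells and reached 31.8 in GL_M_47.

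Among the SNARE disassembly genes Napg, gamma-SNAP, was detected in the largest number of cells, 11. It ranged from 0 in GL_M_6 to 798 in GL_M_91 with a median of 102, and 10 of its 11 detected cells were at 10 or more. It lies on chromosome 18 from 62977831 to 62999450 on the plus strand. Napa, alpha-SNAP, had a median of 0.896 and was detected in 6 cells, among them GL_M_91 at 1873, GL_M_60 at 1135 and GL_M_11 at 510. Napb, beta-SNAP, known as the form of the nervous system, did not exceed 0.377. Nsf, the ATPase, had a median of 6.47, a highest value of 670 in GL_M_6, and was detected in 8 cells. At least 1 of Napa and Napg was detected in 13 of 14 cells, and Nsf together with a SNAP gene in 7.

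The SNARE list (14 members analysed) held 3 of the 5 members below 1 in every cell and none detected in every cell. The ER to Golgi set consists of Stx5a, Gosr2, Bet1 and Sec22b. Sec22b ranged from 0 to 1424 with a median of 15.5, and its 8 detected cells included GL_M_85 at 1424, GL_M_11 at 1161 and GL_M_65 at 872. Stx5a was detected in 9 cells, with a median of 3.78 and a highest value of 132 in GL_M_55. Bet1 was detected in 3 cells, with 888 in GL_M_75 and 114 in GL_M_36. Gosr2, also called membrin, did not exceed 0.0902. Hence 0 cells had the full set, 3 cells had 3 of the 4, 4 cells had 2, 3 cells had 1 and 4 cells had 0. Gosr1, which replaces Gosr2 in a set within the Golgi, was detected in 6 cells with at most 69.6, and Ykt6, the lipid-anchored SNARE of that set, did not exceed 0.492.

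SNAREs of endosomes and the cell surface were likewise patchy. Snap23, the widely expressed partner for fusion at the plasma membrane, was above 0 in every cell, from 0.0926 to 939 with a median of 2.74, and was high in GL_M_30 at 939, GL_M_51 at 377 and GL_M_6 at 374. Its mean log2(RPKM + 1) was 3.14 ± 3.42 (SD over 14 cells). Its relative Snap29 was above 0 in GL_M_36 alone, at 0.130. Vamp3, the vesicle SNARE of recycling endosomes, was above 0 in every cell, from 0.0468 to 199 with a median of 1.81, and was high in GL_M_30 at 199 and GL_M_47 at 170, with a mean log2(RPKM + 1) of 2.30 ± 2.63 (SD over 14 cells). Vamp2 was detected in 3 cells with a highest value of 120, and Vamp4, a SNARE of the trans-Golgi network, was at 353 in GL_M_29 and below 1 elsewhere. Among syntaxins, Stx12 was detected in 5 cells up to 108, Stx4a in 3 up to 285, and Stx7 in 2, at 410 in GL_M_30 and 18.6 in GL_M_47. Snap23, Vamp3 and Stx7 all had their highest value in GL_M_30, the cell with most endothelial markers at 10 or more. Other cells held such markers too, among them GL_M_47 with 4. The part of endothelial transcripts in these values was not tested.

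The Rab GTPases that tether these vesicles followed the same pattern. Rab2a was detected in 7 cells, from 0 to 338 with a median of 1.50, and was highest in GL_M_85 at 338 and GL_M_30 at 320. Rab1a was detected in 6 cells, all at 10 or more, with a median of 0.241 and a highest value of 77.5. Rab1b was detected in 2 cells, at 140 in GL_M_11 and 21.9 in GL_M_36. At least 1 of the Rab1 genes was detected in 7 cells.

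Across roles, 20 of 57 members (35.1%) had an RPKM of 10 upward in 3 to 7 cells, called on cells here, but 0 in at least 4, beside 6.19% of protein-coding genes. Over the genes detected in some cell, 20 of 52 members (38.5%) and 14.8% of protein-coding genes met this rule. These members were detected in a median of 5 cells and these protein-coding genes in a median of 3. Their median levels on the log2(RPKM + 1) scale were 1.75 and 1.02. The genes were not matched for level, so whether the on cell pattern is particular to the members was not tested. The 20 members comprised 5 COPII members, 6 COPI members, Gbf1, 3 cargo receptors, Napa, Nsf, Stx12, Gosr1 and Rab2a. GL_M_47 was an on cell for 12 of the 20, GL_M_36 for 9, GL_M_11 and GL_M_85 for 8 each, and the other 10 cells for 2 to 6. Copb2 was on in GL_M_29, GL_M_11, GL_M_30, GL_M_65 and GL_M_36, and Nsf in GL_M_6, GL_M_75, GL_M_47, GL_M_94 and GL_M_30, with GL_M_30 in common. Lman1 and Cope were on in 3 cells each, with GL_M_47 in common.

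Cells differed in how many members they showed. The number detected ran from 11 in GL_M_51 and GL_M_60 to 33 in GL_M_47, with a median of 19.5, and made up 0.581% to 0.933% of the genes detected in the cell. GL_M_36 and GL_M_47, with most genes, had 31 and 33 members, and GL_M_60, with fewest genes at 1770, had 11 in spite of the highest read total. Members took 0.129% of the RPKM total in GL_M_55 and 1.05% in GL_M_85, with a median of 0.480%. GL_M_85 also held the highest value of 8 members, more than any other cell, and the part of its leukocyte transcript was not tested. GL_M_55 had the lowest share as well as the lowest Kdelr2, and it was the cell with most podocyte markers, whose part was not tested. The member with the highest RPKM differed between cells, with 10 different genes in front, among them Sec22b in 3 cells and Napa and Sar1b in 2 each. That gene alone made up 11.5% of the member total in GL_M_47 and 49.7% in GL_M_55, with a median of 30.04%.

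**Figure D4:**
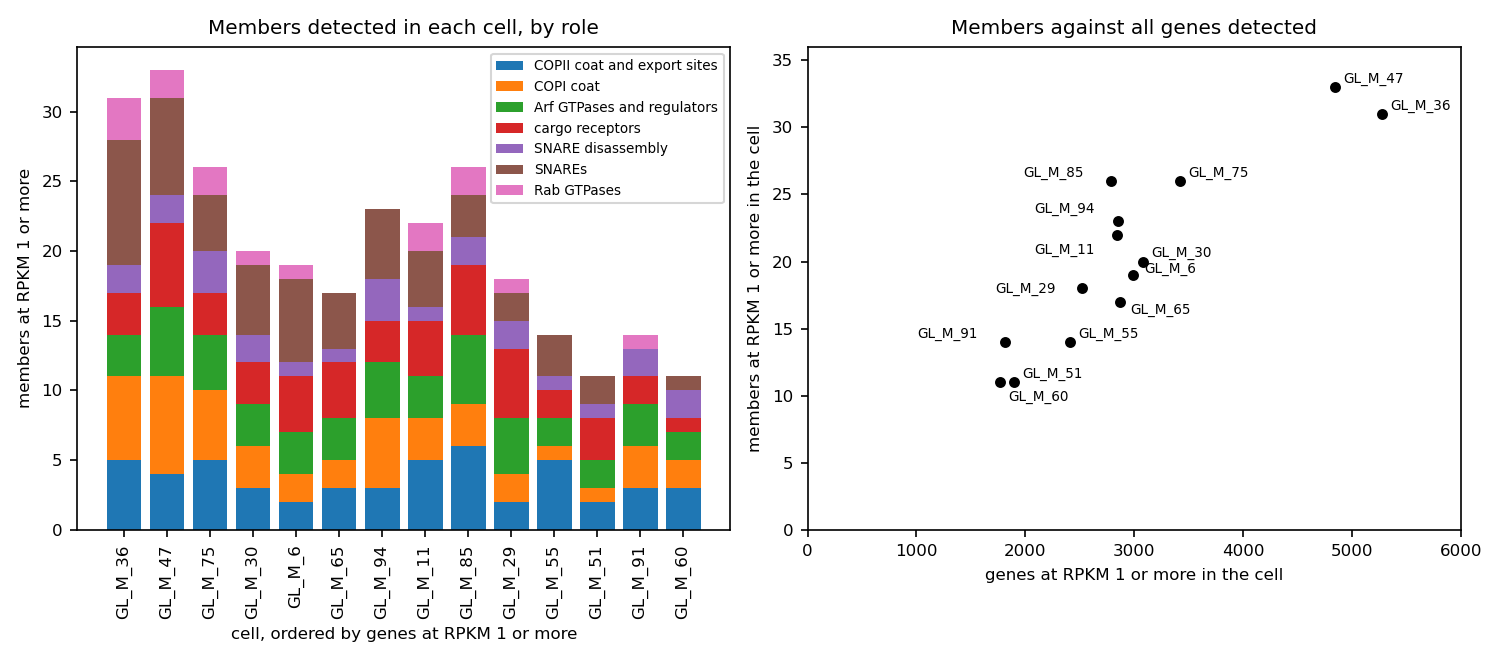
Left, members at an RPKM of 1 or more in each cell, stacked by role, with cells ordered by genes detected; right, the same number against the genes detected, with 1 point per cell. GL_M_36 and GL_M_47 stand at 31 and 33 members, and GL_M_51 and GL_M_60 at 11 members with 1894 and 1770 genes.

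Other genes of the route, 130 in 7 lists, were described in the same way. None was detected in every cell, beside 0.701% of protein-coding genes. Of the 130, 19 were detected in 7 or more cells, beside 9.01%, and 19 in no cell, beside 58.2%. The median was 3 cells. The counts in 7 or more cells given for each list below belong beside the same 9.01%, and Golgi tethers, at 3 of 32, lay close to it. Clathrin and its adaptors were the most widespread list, with 5 of 17 detected in 7 or more cells. Ap2m1, a subunit of the plasma membrane adaptor, had a median RPKM of 419 and was detected in 13 cells, though 28.8% of its 50-base stretches recur in other genes, and Cltc, the clathrin heavy chain, had a median of 33.8 and was detected in 12, followed by Ap2s1 with 15.3 and 9 cells. Of 17 other Rab genes 4 were detected in 7 or more cells, led by Rab14 with a median of 164 and Rab11b with 104, GTPases of endosomal recycling, then Rab6a of the Golgi with 5.18.

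Other ER export factors had 4 of 19 members in 7 or more cells, led by Mia2, a relative of Mia3, with a median of 4.87 and 10 cells, then Cnih4 with 1.35 and Lman2l with 1.30. Golgi tethers had 3 of 32, the highest medians being 8.45 for Trappc13, 1.50 for Rint1 and 1.45 for Cog4. Other SNAREs had 2 of 21, with Stx8 at a median of 5.06, Vti1b at 0.925 and Vamp5 at 0.741. Other p24 proteins and COPI regulators had 1 of 16, Tmed5, with a median of 3.77 and 12 cells, followed by Arl1 at 0.710 and Arf2 at 0.107. Of the SM proteins, which clasp SNARE bundles, 0 of 8 were detected in 7 or more cells, the highest medians being 0.525 for Stxbp2, 0.189 for Stxbp3 and 0.164 for Vps33b.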

How the data were processed

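Gene expression of 14 single cells of 1 mouse was deposited as RPKM, reads per kilobase of gene and megaread, made by the authors. Per the submitters' processing notes, the tools included TopHat2 2.0.12 and HTSeq 0.6.1, with mm10 as genome. For annotation, strand setting and cell filters, details were not given in the sources used here. Symbols, exon lengths and coordinates came from GENCODE M21 (GRCm38). Read totals were recovered from the commonest single-read RPKM step at genes with 1 annotated transcript. At these genes 84.7% to 89.7% of values below 50 reads in each cell were whole numbers to a tolerance of 0.02 reads. In simulated cells, made with the same exon lengths, 14 of 14 totals were recovered within 0.1% (34488 genes). Neither checks the read numbers of genes with several transcripts, which most members are. Those numbers are nominal. Amplified reads without molecular identifiers are not independent molecules, so floors of 3 reads cover counting error only. The interval given for Arf5 covers the drawing of cells only.

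Detection meant an RPKM of at least 1, and log2 levels used a pseudocount of 1, which compresses low levels. The cells share 1 animal, so no p-value was computed. Means ± SD are given for genes above 0 in every cell. The share of 50-base stretches found in other genes was at most 22.0% for any member. Alternatives were other detection limits, pseudocounts, TPM, and leaving out cells. Named members were those detected in 11 or more cells, the highest by median of each role, paralogue pairs, members below 1 in every cell and on or off members (10 or more in 3 to 7 cells, 0 in 4 or more), besides the 3 highest by median of each list of other genes; other names were chosen after their values were seen. The members and lists were chosen with earlier results of these data known. Python 3.11.15, pandas 2.3.3, numpy 2.4.6 and matplotlib 3.10.9 were used.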

Additional observations from a re-analysis of the deposited data

How the results depend on the processing

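Counts of detected members followed the detection limit. Limits given in reads are nominal, at the full exon length, and can stand for fewer reads at genes with several transcripts. Members detected in every cell were 2 at an RPKM of 1, 5 above 0, 4 at 3 reads or more, and 0 at 5 and at 10. Members detected in at least 7 cells were 17 at the limit of 1, 40 above 0, 26 at 0.1, 33 at 3 reads, 9 at 5 and 7 at 10. Members detected in no cell were 5, against 1 above 0, 2 at 0.1 and 1 at 3 reads. The median number per cell was 19.5, against 34.5 above 0, 27.5 at 0.1, 32 at 3 reads and 12.5 at 10. Cells with every COPI position were 0, against 2 above 0, 1 at 0.1, 1 at 3 reads and 1 with TPM. Cells with every COPII position were 0, against 4 above 0, 1 at 0.1 and 4 at 3 reads, and the full SNARE set was met in 1 cell above 0. The median level of members, 1.63 on the log2 scale, was -0.44 with a pseudocount of 0.1 and 4.03 with 10, and the median SD over cells, 2.51, was 3.76 and 1.35, and 2.79 with TPM. These shifts follow from how the limit, the scale and the pseudocount are built. Leaving out each cell in turn gave 2 members in every cell throughout, 13 to 17 in at least 7 cells (of 13 left), 5 to 6 in none and a median of 19 to 20 per cell. It gave a median level of 1.44 to 1.75, a median SD of 2.34 to 2.58, a share of 0.531% to 0.602% (mean 0.568%) and 0 complete sets in each case. Without GL_M_30 and GL_M_55 together, chosen after seeing the data, 2 members were in every cell and 20 in at least 6 of the 12 left. Without GL_M_36 and GL_M_47 each count stayed within 1.5 times and each other summary within 1 SD over cells. For the median SD the yardstick was instead a jackknife SE from leaving out each cell (0.218), which describes cells of 1 mouse. No member shared 50% of its sequence with other genes, so leaving such members out removed none. All 56 paralogue differences under alternatives stayed within 1 SD over cells, which was wide, but the mean log2 difference of Sec24b minus Sec24a, 0.25, turned to -0.17 with a pseudocount of 0.1 and to -0.36 without GL_M_55. No paired analysis was possible because the cells form 1 group.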
